A study of Drosophila melanogaster with 12 samples.

Results

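The comparison described here set rbf120a wtsX1Lats eye discs against rbf120a eye discs, 3 arrays each, chosen by the genotype in the sample labels. These are 6 of the 12 arrays of the series, and all were hybridised with RNA from eye discs of Drosophila melanogaster larvae in the third instar. The rbf120a wtsX1Lats discs carried the wtsX1Lats allele in addition to rbf120a. The rbf120a discs carried rbf120a alone, so both groups share that allele and differ by wtsX1Lats. Another 3 arrays of wtsX1Lats discs and 3 of Canton S discs, a wild-type strain, served to ask whether the same allele gave the same changes without rbf120a. According to the design text the discs were mosaic and only mostly mutant, since mutant cells outgrew wild-type cells, so every mutant value is a mixture. The replicates are called biological without the number of animals or dissections behind each, so p-values measure the spread between these arrays. The labels do not describe how clones were made, what the lesions in either allele are, or the sex of the larvae.

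The eye disc is the larval epithelium that forms the adult compound eye. A furrow crosses it from back to front, leaving differentiating photoreceptors and cone cells behind and dividing progenitors ahead. The gene wts encodes the Warts kinase of the Hippo pathway, which phosphorylates the growth co-activator Yorkie and keeps it out of the nucleus. Rbf is the fly retinoblastoma family protein that represses E2F target genes, and in flies joint loss of Rbf and Hippo pathway genes is known to impair the maintenance of photoreceptor fate. In RNA from whole discs, fewer cells of a type and less RNA per cell cannot be told apart.

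Values are log2 levels on the deposited scale, 1 probe set for each of 11982 genes, and a change is the rbf120a wtsX1Lats mean minus the rbf120a mean. A gene was called when its Benjamini-Hochberg adjusted p from limma was under 0.05. A probe set's level is not set against another's, because probes differ in affinity. Both groups varied little: the median SD of a gene was 0.083 in rbf120a wtsX1Lats and 0.095 in rbf120a, against 0.167 in wtsX1Lats and 0.125 in Canton S. The Pax6 genes ey and toy read 10.37 to 10.62 and 12.75 to 12.85 in rbf120a wtsX1Lats discs. In rbf120a discs they read 9.49 to 9.85 and 11.82 to 12.16. Both are among the genes called below and no other tissue was measured, so these readings do not check the identity of the discs.

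Some arrays stood apart. Replicate 1 of rbf120a wtsX1Lats correlated best with replicate 2 of wtsX1Lats (r = 0.9955) rather than with its own group (0.9926 to 0.9934), and replicate 2 of rbf120a correlated best with that same double mutant array (0.9909, against 0.9883 to 0.9889 within its group). These same 2 arrays were high in salivary gland genes. The mean level of 12 such genes was 6.51, 5.45 and 5.50 in rbf120a wtsX1Lats and 5.47, 7.68 and 5.54 in rbf120a. No salivary gland gene was called. Replicate 2 of rbf120a was also high in antimicrobial peptide genes (7.68 against 5.49 and 5.56 in its group), and replicate 3 of rbf120a, labelled as a repeated scan, was highest in gut genes (5.87 against 5.23 and 5.32). Each of the 3 RNA control genes has a 3' minus 5' probe difference that grows as RNA is degraded or incompletely copied. It separated the groups for actin, narrowly, and for eIF-4A, but not for GAPDH. For actin the difference was 0.46, 0.42 and 0.34 in rbf120a wtsX1Lats and 0.47, 0.71 and 0.82 in rbf120a, and for eIF-4A 0.70, 0.70 and 0.59 against 0.75, 0.82 and 0.95, so those groups did not overlap. GAPDH gave 1.21, 1.23 and 1.13 against 1.21, 1.38 and 1.34, which overlapped. The part of these differences in the results below was not tested.

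The targeted transcripts did not separate the groups. Rbf read 8.96, 9.36 and 9.26 in rbf120a wtsX1Lats discs and 9.13, 9.13 and 9.22 in rbf120a discs, a change of 0.03 ± 0.11 (SE; limma adjusted p = 0.916). For wts the values were 9.76, 9.95 and 10.02 against 9.67, 9.73 and 9.78, a change of 0.18 ± 0.08 (SE; adjusted p = 0.311). Levels of neither transcript therefore check the labels, and whether the probes lie within the lesions was not analysed here.

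Adding wtsX1Lats to rbf120a changed 412 of 11982 genes (3.44%). Of these 126 were higher (1.05%) and 286 lower (2.39%) in rbf120a wtsX1Lats discs. In all 412 the 6 arrays separated without overlap, where over all genes 11.2% separated with rbf120a wtsX1Lats higher and 12% with it lower. Most changes were modest, with a median of 0.60 among the higher and -0.68 among the lower genes. Only 55 changed by at least 1 on the log2 scale, 26 higher and 29 lower. Centring each array on its median raised every change, the all-gene median by 0.115, and turned the balance to 353 higher and 200 lower, so the excess of falls did not hold under that centring, while quantile normalisation gave 141 higher and 215 lower. A fit over all 12 arrays, whose common variance includes the more variable wtsX1Lats and Canton S arrays, called 81 genes (0.676%), 41 higher (0.342%) and 40 lower (0.334%), 79 of them also called in the 6-array fit. Whichever single array was left out, 99 genes (43 higher, 56 lower) stayed called.

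The 4 largest rises were of genes that read 4.55 to 5.58 in rbf120a discs. Tektin-C, which encodes a tektin of the sperm flagellum and lies on arm 3L, read 9.17, 9.53 and 9.58 in rbf120a wtsX1Lats discs and 5.16, 5.06 and 5.06 in rbf120a discs. That is a 20.2-fold rise (4.33 ± 0.12 SE, adjusted p = 1.11e-05), far outside the spread of either group. Hsc70-2, a heat shock cognate gene on 3R, read 7.88, 7.49 and 7.85 against 4.55, 4.70 and 4.61 (3.12 ± 0.12 SE, adjusted p = 3.09e-05). The tumorous testis gene tut, known for limiting germ cell divisions in the fly testis, read 8.36, 8.20 and 8.35 against 5.36, 5.18 and 5.03 (3.11 ± 0.11 SE, adjusted p = 1.97e-05). These 3 belong to a list of 35 testis and germline markers of which 3 rose and 1 fell, while the list's median change was -0.01 and classic testis genes stayed at low readings: dj averaged 4.31 in rbf120a wtsX1Lats and 4.32 in rbf120a, and betaTub85D 4.64 and 4.47. The sugar transporter gene sut2 on 2R read 8.71, 8.77 and 8.49 in rbf120a wtsX1Lats discs and 5.54, 5.57 and 5.58 in rbf120a discs, an 8.55-fold rise (adjusted p = 1.4e-05). All 4 genes stayed called with any single array left out and in the 12-array fit.

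The corneal lens protein gene retinin read 9.80, 9.83 and 9.06 in rbf120a wtsX1Lats discs and 6.79, 7.39 and 6.97 in rbf120a discs (5.72-fold, adjusted p = 0.00333). TwdlE, a Tweedle cuticle protein gene, read 11.07, 10.81 and 10.79 against 8.76, 8.0 and 8.81 (5.15-fold, adjusted p = 0.00306). It was the only member called higher among 42 cuticle genes, of which 2 were called lower. The immunoglobulin family gene dpr16 read 7.56, 7.37 and 7.29 against 5.53, 5.16 and 5.72, a rise of 1.94 ± 0.15 (SE, adjusted p = 0.00236), but its other probe set gave 0.09. The leucine-rich repeat gene ltl rose by 1.88 ± 0.20 (SE, adjusted p = 0.00493), the zinc transporter gene ZnT77C by 1.25 ± 0.11 (adjusted p = 0.00333), the translation initiation factor gene eIF4E3 by 1.21 ± 0.10 (adjusted p = 0.00274) and the adhesion gene Dscam4 by 1.22 ± 0.14 (adjusted p = 0.00574), whose 2 other probe sets gave 0.24 and 0.28. Hrb87F, an RNA-binding hnRNP gene, whd, the carnitine palmitoyltransferase gene, and NijC, a ninjurin, completed the 14 largest rises and are described with the interaction below. Among genes with only a CG number, CG42565 (1.48), CG7173 (1.30) and CG31157 (1.27) rose most, with adjusted p of 0.00211, 0.00843 and 0.00265. The other probe set of CG42565 gave 0.02.

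The largest falls were smaller than the 6 largest rises. Ekar, a kainate-type glutamate receptor gene on chromosome 4, read 6.79, 7.39 and 7.16 in rbf120a wtsX1Lats discs and 8.94, 8.59 and 8.93 in rbf120a discs, a change of -1.70 ± 0.17 (SE, adjusted p = 0.00384). Dpp10, a dipeptidyl peptidase family gene, read 6.44, 6.35 and 5.79 against 8.29, 7.43 and 7.61 (-1.58 ± 0.25 SE, adjusted p = 0.0189). The neuronal immunoglobulin family gene plum fell by 1.40 ± 0.13 (SE, adjusted p = 0.00342) and the neuronal kinase gene sff by 1.26 ± 0.14 (adjusted p = 0.00548), although the other probe set of sff gave -0.04. The glutathione S-transferase gene GstD3 read 9.24, 9.39 and 9.49 against 10.74, 10.63 and 11.11 (-1.45 ± 0.13 SE, adjusted p = 0.00329), and the cytochrome P450 gene Cyp4p1 read 7.06, 6.89 and 6.87 against 8.22, 8.31 and 8.47 (-1.39 ± 0.10 SE, adjusted p = 0.00211). Separated groups were a condition for naming these genes.

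Further falls among the 14 largest were those of the lysosomal thiol reductase family gene GILT3 (-1.18 ± 0.10 SE, adjusted p = 0.00265), superdeath (-1.15 ± 0.12, adjusted p = 0.00479) and the tetraspanin gene Tsp42Eo (-1.26 ± 0.11, adjusted p = 0.00329). The falls of hlk (-1.17 ± 0.24 SE, adjusted p = 0.0421) and of the dense-core vesicle gene IA-2 (-1.09 ± 0.19, adjusted p = 0.0255) each passed in only 2 of the 6 leave-one-out fits, and the 2 other probe sets of IA-2 gave -0.16 and 0.10. Among CG-numbered genes CG43103 (-1.51), CG11370 (-1.44) and CG13227 (-1.32) fell most, with adjusted p of 0.0242, 0.0373 and 0.0277. These 3 stayed called in 1, 2 and 1 of the 6 leave-one-out fits. The germline gene krimp, the testis gene blanks and the maltase gene Mal-A1 complete the list and are described with the interaction.

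**Figure D1:**
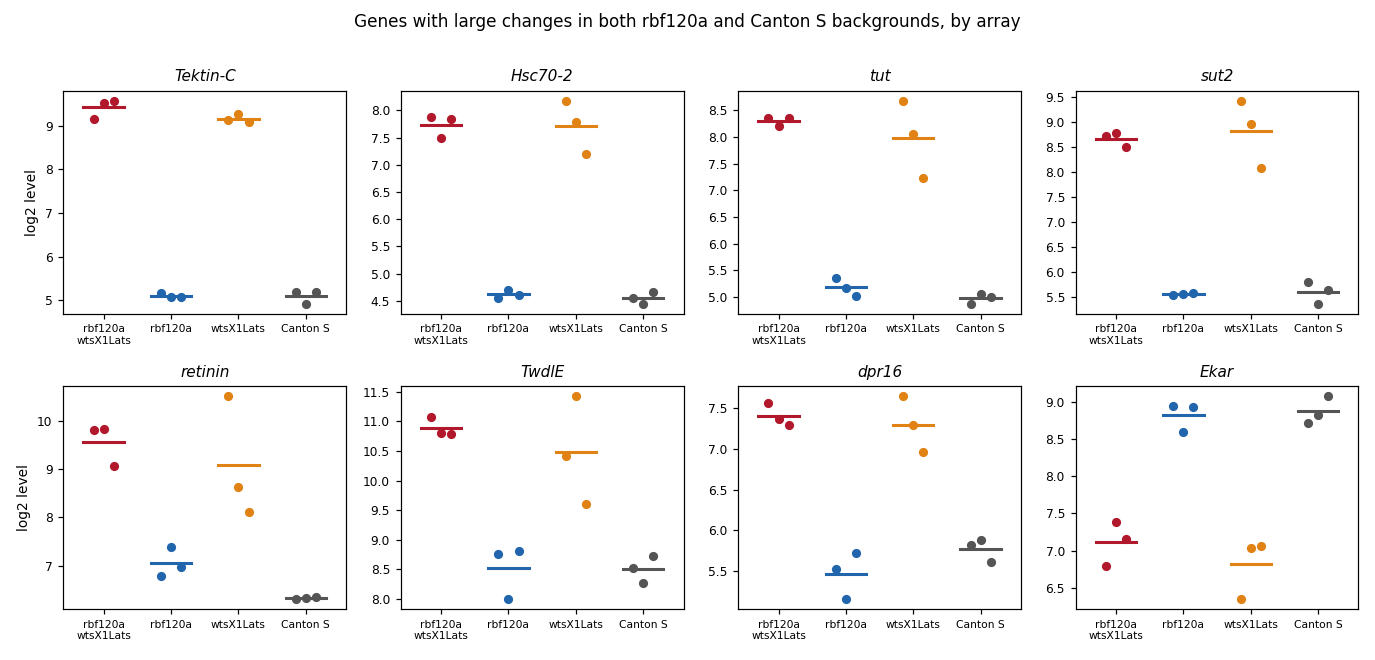
Log2 levels of 8 genes in each of the 12 arrays (points) with group means (bars), by genotype. In Tektin-C, Hsc70-2, tut, sut2, retinin, TwdlE and dpr16 the rbf120a wtsX1Lats arrays lie above the rbf120a arrays and the wtsX1Lats arrays above the Canton S arrays, and in Ekar both pairs are reversed.

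Of the 26 rises of at least 1, 11 were on 3L and 7 on 3R, 18 in all, while these arms hold 44.7% of the placed genes and 10 of the 29 falls of that size. The excess was on 3L, with 19.7% of the genes, and not on 3R, with 25%, where wts itself lies. Over all calls these 2 arms did not differ from the rest, with 3.46% called against 3.47% of all placed genes. On chromosome 4, 8 of 65 genes were called (12.3%, 3 higher and 5 lower), with toy and ey among the rises and Ekar and the muscle gene bt among the falls. On the other arms 2.24% to 3.90% of genes were called, lowest on X. What flanking sequence came with the wtsX1Lats chromosome is not stated in the labels, and linked differences cannot be told apart from effects of the allele.

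The Hippo target list named 20 genes, of which only 10 were matched to a gene tested here. Among these 10 measured genes 3 rose and none fell, where 1.05% of all genes rose. The median change was 0.16, and 0.00 over all genes. The main rise was that of ex, which encodes the FERM protein Expanded, a Yorkie target that feeds back on the pathway. It read 11.01, 11.03 and 11.02 in rbf120a wtsX1Lats discs and 9.76, 9.88 and 10.08 in rbf120a discs, a 2.16-fold rise (1.11 ± 0.08 SE, adjusted p = 0.00211). It held in every leave-one-out fit and in the 12-array fit (adjusted p = 0.0384). The glypican gene dlp read 11.21, 11.48 and 11.20 against 10.82, 10.93 and 10.85 (0.43 ± 0.08 SE, adjusted p = 0.0374), and the Golgi kinase gene fj read 10.92, 10.92 and 10.98 against 10.67, 10.72 and 10.65 (0.26 ± 0.05, adjusted p = 0.0459). Neither was called in any leave-one-out fit. The atypical cadherin gene ds, an upstream input to Warts, read 11.03, 11.32 and 11.10 against 10.77, 10.70 and 10.72 (0.42 ± 0.08 SE, adjusted p = 0.0343), and it stayed called in 1 of those 6 fits.

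The other measured Hippo targets did not pass. The apical determinant crb had a difference of 0.24 ± 0.06 (SE, adjusted p = 0.0797) and the upstream regulator kibra one of 0.32 ± 0.14 (adjusted p = 0.307). The cyclin gene CycE, a growth target in discs, averaged 10.50 ± 0.15 in rbf120a wtsX1Lats and 10.46 ± 0.19 in rbf120a (SD, n = 3 each), a change of 0.04 ± 0.11 (SE). The estimates were 0.01 for Mer, -0.32 and 0.08 for the JAK/STAT ligand genes upd1 and upd2, and -0.09 for the relaxin-like gene Ilp8, with adjusted p between 0.359 and 0.958. In the pathway list of 31 components, ex, ds and fj were the 3 called, all higher, where 1.05% of all genes rose. None fell, and the median was 0.01. The kinase gene hpo (-0.04), the adaptor genes sav (-0.12) and mats (-0.09) and yki (0.09) had adjusted p between 0.446 and 0.869.

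Retinal determination genes encode the transcription factors that commit the disc to eye fate. Of 13 measured, 4 rose and none fell (median 0.15), where 1.05% of all genes rose. The Pax6 gene toy read 12.75, 12.77 and 12.85 in rbf120a wtsX1Lats discs and 11.82, 12.02 and 12.16 in rbf120a discs (0.79 ± 0.09 SE, adjusted p = 0.00521), with rises of 0.89 and 1.13 on 2 further probe sets. The second Pax6 gene, ey, read 10.37, 10.43 and 10.62 against 9.50, 9.49 and 9.85 (0.86 ± 0.12, adjusted p = 0.0105). The homeobox gene Optix read 11.05, 11.23 and 11.21 against 10.54, 10.48 and 10.30 (0.72 ± 0.08, adjusted p = 0.00574). In these 3 genes, as in every called rise, each rbf120a wtsX1Lats array was above each rbf120a array. Of the 3, toy and Optix passed all leave-one-out fits, and ey passed 5 of 6. The zinc finger gene tsh, which is known to act with ey ahead of the furrow, read 9.97, 10.01 and 10.22 against 9.64, 9.60 and 9.57 (0.46 ± 0.08, adjusted p = 0.0254) and passed 1 of 6. In the 12-array fit only ey and Optix of the list were called. The list was mixed, with 9 positive and 4 negative changes. Among members not called, so changed by 0.20 and dac by 0.01. The negative ones were eya (-0.31), dan (-0.24), danr (-0.25) and Lim1 (-0.33). At an unadjusted p under 0.05, 5 members were higher and 4 lower, where 17.2% of all genes passed in either direction.

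**Figure D2:**
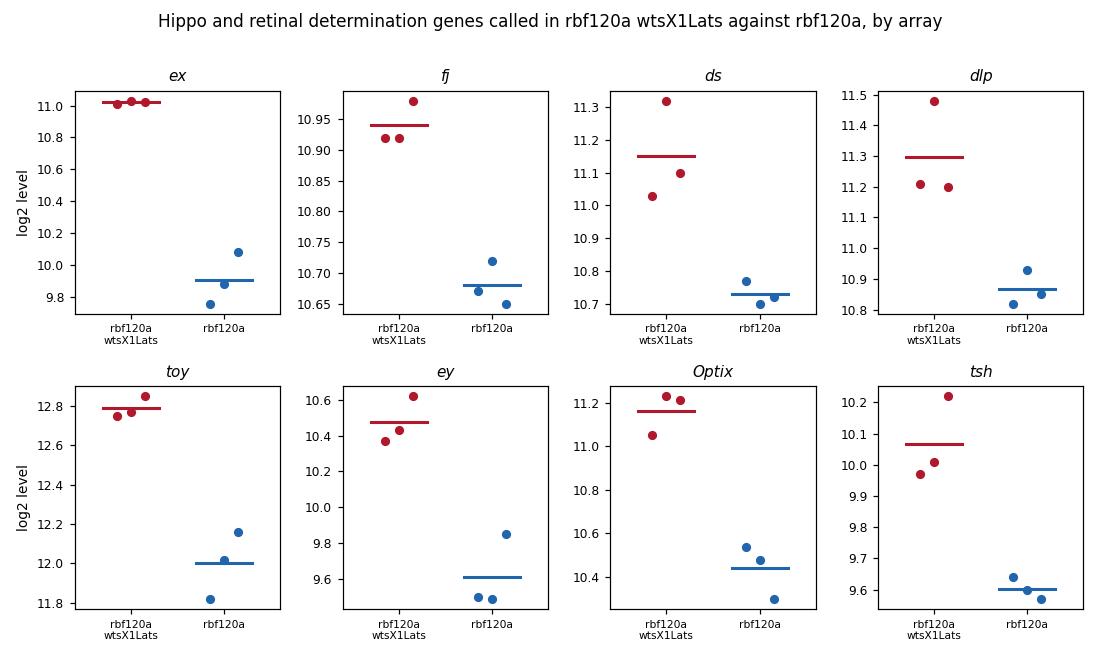
Log2 levels of the called Hippo genes (ex, fj, ds, dlp) and retinal determination genes (toy, ey, Optix, tsh) in the 3 rbf120a wtsX1Lats and 3 rbf120a arrays, with group means as bars. All rbf120a wtsX1Lats arrays lie above all rbf120a arrays, by most in ex (11.01 to 11.03 against 9.76 to 10.08).

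Genes of photoreceptor and cone cell differentiation held the most falls of the 33 lists. Of the 29 members 13 fell and none rose, with a median change of -0.61, where 2.39% of all genes fell. Among transcription factors, salm, which is known in R7 and R8 photoreceptors, read 8.86, 9.15 and 9.06 in rbf120a wtsX1Lats discs and 9.83, 9.97 and 10.10 in rbf120a discs (-0.94 ± 0.10 SE, adjusted p = 0.00511). Its paralogue salr changed by -0.50 (adjusted p = 0.0486), the zinc finger gene gl, required for photoreceptor identity, by -0.75 (adjusted p = 0.0486), the R2 and R5 homeobox gene ro by -0.69 (adjusted p = 0.0264) and the R8 gene sens by -0.61 (adjusted p = 0.0408). The receptor tyrosine kinase gene of R7, sev, read 7.14, 7.78 and 7.46 against 8.28, 8.40 and 8.39 (-0.90 ± 0.15 SE, adjusted p = 0.0242), and the adaptor gene phyl, which acts with sina in R7 induction, read 8.43, 8.60 and 8.62 against 9.05, 9.35 and 9.54 (-0.76 ± 0.13, adjusted p = 0.0223). In salm, sev and phyl, as in every called gene, the groups did not overlap.

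The other called members of the photoreceptor and cone cell list fell as well. The neuronal RNA-binding protein gene elav read 8.88, 9.29 and 9.14 in rbf120a wtsX1Lats discs and 9.71, 9.78 and 10.10 in rbf120a discs (-0.76 ± 0.13 SE, adjusted p = 0.0255). The tetraspanin gene lbm read 8.27, 8.31 and 8.51 against 9.35, 9.18 and 9.17 (-0.87 ± 0.09, adjusted p = 0.00493). The Chaoptin gene chp, a photoreceptor surface protein, changed by -0.65 (adjusted p = 0.0242), the sodium pump subunit gene nrv3 by -1.0 (adjusted p = 0.0368), the microtubule-associated protein gene futsch by -0.86 (adjusted p = 0.0347) and rdo by -0.75 (adjusted p = 0.0194). The other probe set of rdo gave -0.13. Members that did not pass included ato, the R8 proneural gene, at 9.90, 9.84 and 9.94 against 10.10, 10.13 and 10.15 (-0.24 ± 0.06 SE, adjusted p = 0.0823), sina (-0.02), lz (-0.13), B-H1 (0.36) and aop (-0.05). Of the 13 falls only those of salm and lbm passed every leave-one-out fit, and only that of lbm the 12-array fit (adjusted p = 0.0108).

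The photoreceptor count depended on the arrays. It was 3 to 7 with 1 array left out, 5 with both arrays high in salivary gland genes left out, and 7 after median centring or quantile normalisation, always with no member called higher. The mean level of the 29 genes was 8.35, 8.62 and 8.55 in rbf120a wtsX1Lats discs and 8.85, 8.92 and 9.04 in rbf120a discs, without overlap.

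Notch pathway genes of the Enhancer of split complex followed the same direction. Of 19 Notch genes 6 fell and none rose (median -0.33), where 2.39% of all genes fell. However, none was called without rbf120a wtsX1Lats replicate 3, 2 without rbf120a replicate 2 and 3 without rbf120a replicate 3. Those that fell were the repressor genes E(spl)mdelta-HLH, E(spl)m7-HLH and E(spl)m3-HLH, the Bearded family genes E(spl)m4-BFM and E(spl)m2-BFM, and the neural progenitor gene dpn. E(spl)mdelta-HLH read 10.04, 10.28 and 10.14 in rbf120a wtsX1Lats discs and 10.86, 11.12 and 11.42 in rbf120a discs (-0.98 ± 0.14 SE, adjusted p = 0.0121). E(spl)m7-HLH read 9.83, 10.05 and 9.98 against 10.48, 10.49 and 10.65 (-0.59 ± 0.08, adjusted p = 0.0121). Both passed 5 of 6 leave-one-out fits. No Notch gene was called in the 12-array fit and 1 without the 2 arrays high in salivary gland genes.

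Markers of other tissues that can adhere to a dissected disc moved as well. Of 28 brain and glia markers 8 fell and none rose (median -0.34), where 2.39% of all genes fell. The count was 1 without rbf120a wtsX1Lats replicate 3, 5 and 8 without its replicates 1 and 2, 3 or 4 without an rbf120a array, 1 in the 12-array fit and 2 without both arrays high in salivary gland genes. The glial transcription factor gene repo read 8.19, 8.70 and 8.54 in rbf120a wtsX1Lats discs and 9.12, 9.33 and 9.63 in rbf120a discs (-0.88 ± 0.17 SE, adjusted p = 0.0323), and the glutamine synthetase gene Gs2 read 10.50, 10.73 and 10.73 against 11.56, 11.52 and 11.33 (-0.82 ± 0.09, adjusted p = 0.00548). The others were moody and loco of glia, cac and ChAT of synapses, and elav and dpn, which stand in the photoreceptor and Notch lists too. Of these, cac read low, at 5.01, 5.22 and 4.89 in rbf120a wtsX1Lats and 5.65, 5.69 and 5.71 in rbf120a. Its other probe set gave -0.09. ChAT read low too, at 4.76, 4.81 and 4.76 against 5.21, 5.11 and 5.28. The list's mean level was 7.11 to 7.31 in rbf120a wtsX1Lats and 7.47 to 7.54 in rbf120a. In all, 20 of the 28 had a negative change. The members ase, wor and Gad1 also read low, at 4.29 to 5.38 in rbf120a wtsX1Lats and 4.25 to 5.50 in rbf120a. None of ase, wor and Gad1 was called. Glia enter the eye disc itself through the optic stalk, and disc and brain sources of these transcripts cannot be told apart here.

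Of 18 muscle markers 4 fell and none rose (median -0.40), where 2.39% of all genes fell. The list held 1 call without rbf120a wtsX1Lats replicate 3, 1 or 2 without an rbf120a array and none in the 12-array fit. The 4 that fell were Act87E (-0.65 ± 0.10 SE, adjusted p = 0.0185), bt (-0.69 ± 0.11, adjusted p = 0.0162), sls (-0.65 ± 0.11, adjusted p = 0.0251) and Zasp66 (-0.40 ± 0.05, adjusted p = 0.00958). The muscle list averaged 9.76, 9.71 and 9.56 in rbf120a wtsX1Lats and 10.06, 10.08 and 10.13 in rbf120a, without overlap, and the indirect flight muscle gene Act88F stayed at 5.11 to 5.36 against 5.15 to 5.23. Of 21 blood cell markers PPO2 (0.88, adjusted p = 0.0352) and Nplp2 (0.54, adjusted p = 0.0497) rose, and the basement membrane genes Tig (-0.81, adjusted p = 0.00558) and SPARC (-0.48, adjusted p = 0.0255) fell, around a median of 0.04. Of 14 antennal markers, which the attached antennal part of the disc expresses, Dll (-0.42, adjusted p = 0.0412) and salm fell. Other probe sets of Dll gave -0.16 and -0.62. PPO2, SPARC and Dll each stayed called in 1 of the 6 leave-one-out fits, Nplp2 in 0 and Tig in all 6. No blood cell or antennal marker was called in the 12-array fit. Over all genes 1.05% rose and 2.39% fell. The part of brain, muscle or antennal tissue in the photoreceptor and Notch falls was not tested.

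Cell cycle genes showed no call in either direction. Among 47 E2F and DNA replication genes none was called (median 0.00), and 1 gene passed an unadjusted p under 0.05, which 2066 of all genes did (17.2%). Among 51 mitotic genes none was called either, with a median of 0.09 and 9 at an unadjusted p under 0.05, 8 of them higher. After median centring 5 mitotic genes were called higher. The 28 DNA damage genes had no call. Single members were called in the Egfr (Egfr, 0.53 ± 0.08 SE, adjusted p = 0.0189), glycolysis (the hypoxia factor gene sima, 0.54 ± 0.08, adjusted p = 0.0175) and apoptosis lists (the TNF ligand gene egr, -0.58 ± 0.08, adjusted p = 0.0101), against medians of -0.04, 0.11 and -0.07. These were 1 of 15, 1 of 12 and 1 of 14 genes, where 3.44% of all genes were called. Neither Egfr, sima nor egr was called in the 12-array fit, and they passed 1, 4 and 5 of the 6 leave-one-out fits.

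**Figure D3:**
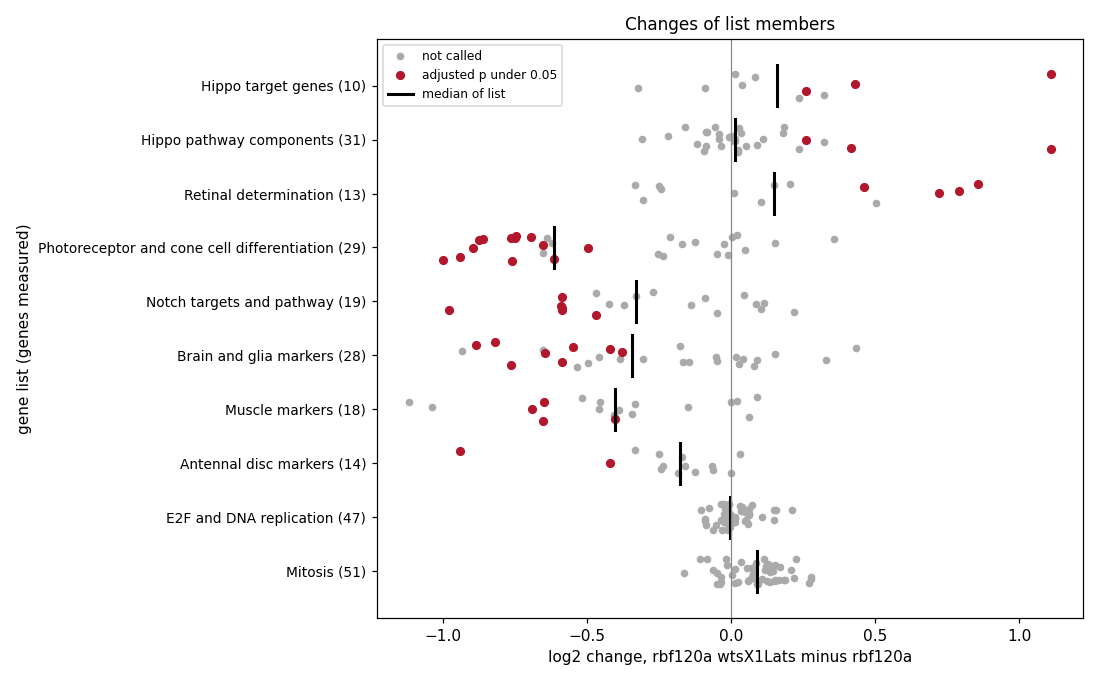
Log2 change (rbf120a wtsX1Lats minus rbf120a) of every measured member of 10 gene lists, 1 point a gene, red where adjusted p was under 0.05, with the list's median as a black bar. Retinal determination calls lie right of 0 and photoreceptor, Notch, brain and muscle calls left of it, while the E2F and mitosis lists hold no call.

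The same allele without rbf120a was examined by setting wtsX1Lats discs against Canton S discs. Its means use none of the 6 arrays above, but its fit takes the common variance of all 12 arrays, and its calls fell to 498 to 556 when any 1 of those 6 arrays was left out. In that comparison 672 genes were called (5.61%), 273 higher (2.28%) and 399 lower (3.33%). Of the 126 genes that were higher in rbf120a wtsX1Lats than in rbf120a, 102 (81.0%) were also higher in wtsX1Lats than in Canton S, against 54.7% of all genes, and 32 were called the same way. Those 32 are 25.4% of the 126 and 11.7% of the 273. Of the 286 lower genes 227 (79.4%) were lower, against 45.3% of all genes, and 77 were called, which is 26.9% of the 286 and 19.3% of the 399. Opposite calls numbered 3 among the higher and 5 among the lower genes. Replicate 3 of wtsX1Lats had the highest RNA control differences of the series (1.70, 1.81 and 1.90 for actin, GAPDH and eIF-4A, where the other 11 arrays reached 0.82, 1.43 and 0.95). Without it the same-way calls became 50 among the higher and 148 among the lower genes, with 1596 genes called in all.

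Of the 14 largest rises, 10 were called the same way in wtsX1Lats against Canton S, Dscam4 was higher without a call (0.52 ± 0.16 SE), and Hrb87F, whd and NijC went the other way, NijC with a call. Tektin-C read 9.13, 9.27 and 9.10 in wtsX1Lats discs and 5.19, 4.92 and 5.18 in Canton S discs, a change of 4.07 ± 0.14 (SE, adjusted p = 4.14e-09) beside 4.33 in the rbf120a background, and the difference between the changes, the interaction, was 0.26 ± 0.19 (adjusted p = 0.713). For Hsc70-2 the change was 3.16 ± 0.20, for tut 3.02 ± 0.27, for sut2 3.21 ± 0.26, for retinin 2.75 ± 0.47 and for TwdlE 1.98 ± 0.36 (SE), all called, with interactions of -0.04, 0.10, -0.11, -0.23 and 0.38 that did not pass. Their SEs were 0.29 to 0.66, widest for retinin, so the changes of these genes are not shown to be equal in the 2 backgrounds. For ltl the change was 1.29 ± 0.28 beside 1.88 (interaction adjusted p = 0.689), and for CG42565 and CG7173 it was 0.05 ± 0.21 and 0.04 ± 0.19. Of the 14 largest falls only 5 were called lower in this background too: Ekar (-2.06 ± 0.21), Dpp10 (-1.78 ± 0.32), plum (-1.57 ± 0.38), sff (-1.46 ± 0.34) and superdeath (-1.41 ± 0.19). GstD3 (-0.59) and IA-2 (-1.03) were lower without a call. The other 7, blanks, Mal-A1, krimp, Cyp4p1 (0.16), Tsp42Eo (0.31), GILT3 (0.43) and hlk (0.04), were not lower, and none of these was called.

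The developmental lists were set side by side as well. Over all genes, 2.28% were called higher and 3.33% lower in wtsX1Lats against Canton S. Without replicate 3 of wtsX1Lats, 778 of 11982 genes were called higher and 818 lower. Of the Hippo genes, ex read 9.83, 10.68 and 10.57 in wtsX1Lats discs and 9.74, 10.26 and 9.67 in Canton S discs (0.47 ± 0.21 SE, adjusted p = 0.234), overlapping, and its interaction was 0.64 ± 0.30 (adjusted p = 0.522). Of the 13 retinal determination genes 1 rose and 1 fell (median 0.04), but 1 rose and 4 fell without replicate 3 of wtsX1Lats (median -0.39), against 4 rises in the rbf120a background. Optix rose in this background too (0.60 ± 0.11, adjusted p = 0.00744), while the estimate was 0.14 ± 0.18 for toy and 0.32 ± 0.13 for ey (adjusted p = 0.731 and 0.176). Of the 29 photoreceptor genes 7 fell (median -0.52), or 20 without replicate 3 of wtsX1Lats (median -0.80). Of the E2F and replication list 8 of 47 genes rose (median 0.65), or 28 with 2 falls when that array was left out, beside none of 47 in rbf120a. Its mean level was 10.51, 10.26 and 10.50 in rbf120a wtsX1Lats and 10.40, 10.37 and 10.45 in rbf120a, and 10.63, 9.91 and 9.95 in wtsX1Lats and 9.57, 9.73 and 9.46 in Canton S. No E2F gene's interaction was called, so a difference between backgrounds was not shown for any single gene of it.

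**Figure D4:**
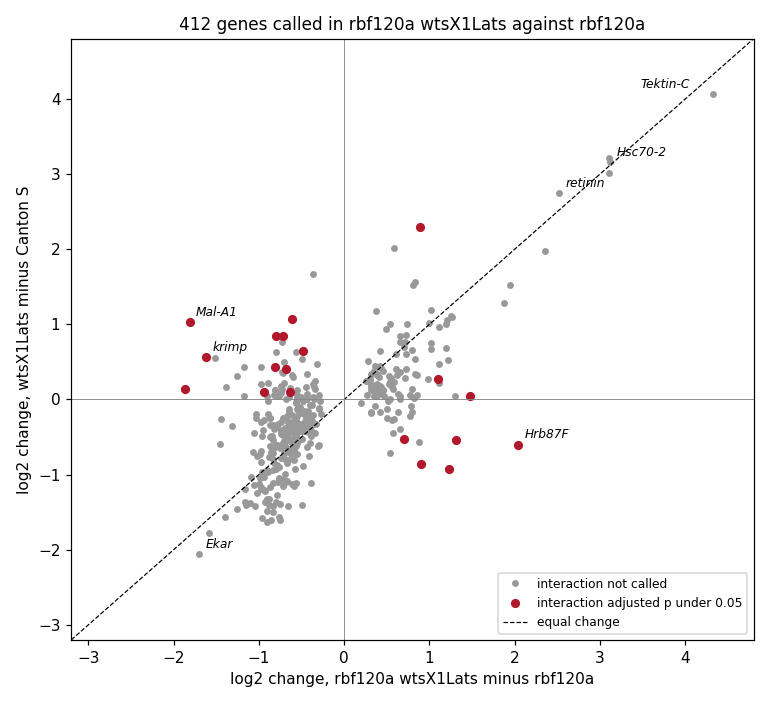
Log2 change in the rbf120a background (horizontal) against log2 change of wtsX1Lats over Canton S (vertical) for the 412 called genes, red where the interaction had adjusted p under 0.05. Most genes lie in the lower left and upper right quadrants, with Tektin-C, Hsc70-2, retinin and Ekar near the line of equal change and Hrb87F, krimp and Mal-A1 off it.

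The interaction was called in 107 genes (0.893%), 59 positive (0.492%) and 48 negative (0.401%), where positive means a more positive change in rbf120a discs. Only 19 of these were among the 412. In those described next the rbf120a arrays lay apart from the other 3 genotypes. Hrb87F, an abundant hnRNP gene, read 12.15, 12.40 and 12.38 in rbf120a wtsX1Lats and 9.96, 10.63 and 10.20 in rbf120a, a 4.13-fold rise (adjusted p = 0.0022), and 11.53, 12.26 and 12.04 in wtsX1Lats and 12.55, 12.54 and 12.55 in Canton S. The rbf120a arrays were thus the low ones, and the interaction was 2.65 ± 0.26 (SE, adjusted p = 0.000476). The metabolic gene whd rose by 1.31 ± 0.13 (adjusted p = 0.00342) beside -0.54 ± 0.17 in wtsX1Lats against Canton S. Its interaction was 1.85 ± 0.24 (adjusted p = 0.00311), but its other probe set changed by only 0.12 between rbf120a wtsX1Lats and rbf120a. NijC rose by 1.23 ± 0.15 (adjusted p = 0.00716) beside -0.93 ± 0.19 (adjusted p = 0.0139), with an interaction of 2.15 ± 0.26 (adjusted p = 0.0023).

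Among the falls, blanks, which encodes a double-stranded RNA-binding protein of the testis, read 6.38, 6.15 and 6.19 in rbf120a wtsX1Lats and 8.69, 7.90 and 7.76 in rbf120a (-1.87 ± 0.23 SE, adjusted p = 0.00711), and 6.57, 6.43 and 6.30 in wtsX1Lats and 6.30, 6.19 and 6.38 in Canton S. The piRNA pathway gene krimp read 5.46, 5.01 and 5.28 in rbf120a wtsX1Lats and 7.13, 6.70 and 6.77 in rbf120a (-1.62 ± 0.15, adjusted p = 0.00333), and 5.52, 5.17 and 4.96 in wtsX1Lats and 4.70, 4.65 and 4.59 in Canton S. Both were high in rbf120a discs alone, with interactions of -2.01 ± 0.29 and -2.19 ± 0.22. The maltase gene Mal-A1, known from the gut, read 7.24, 6.51 and 7.13 in rbf120a wtsX1Lats and 8.25, 8.88 and 9.17 in rbf120a (-1.81 ± 0.27, adjusted p = 0.0143), highest in the rbf120a array that was also highest in gut markers. Its interaction was -2.84 ± 0.52 (adjusted p = 0.0276), and its change passed 5 of 6 leave-one-out fits. The mean level of the gut markers was 5.17, 5.14 and 5.26 in rbf120a wtsX1Lats and 5.23, 5.32 and 5.87 in rbf120a. Mal-A1 was thus also high in the 2 rbf120a arrays without the raised gut level. How far gut tissue contributed to Mal-A1 was not tested, and it was the only called gene among 16 gut markers.

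**Figure D5:**
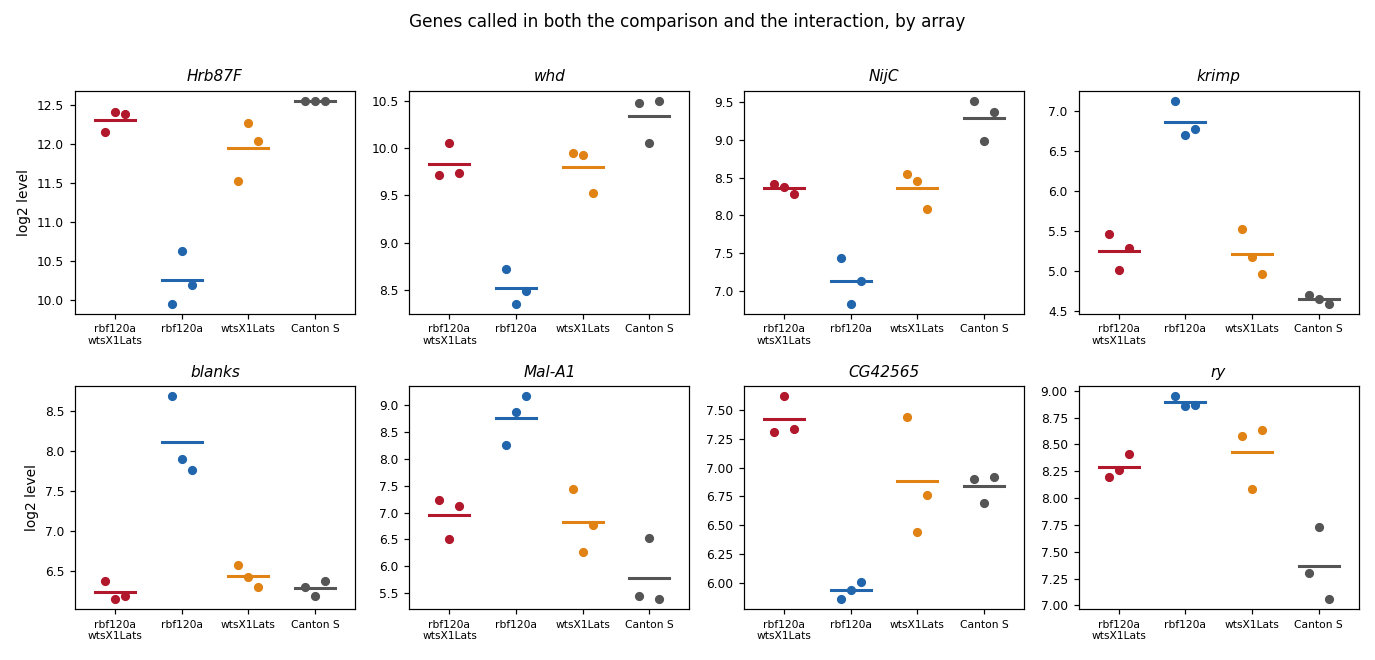
Log2 levels of 8 genes called both between rbf120a wtsX1Lats and rbf120a and in the interaction, in each of the 12 arrays (points) with group means (bars). In Hrb87F, whd, NijC and CG42565 the rbf120a arrays are the lowest, and in krimp, blanks, Mal-A1 and ry they are the highest.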

How the data were processed

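Total RNA of eye discs was labelled from 6 ug and hybridised to Affymetrix arrays, per the labels' protocols. The authors deposited 1 normalised log2 value for each of 18952 probe sets on each of 12 arrays, by a normalisation that no label or file header names. They run from 3.55 to 14.5, with array medians of 5.76 to 5.86. Signal over background and scanner files were not analysed here, so precision rests on the number of arrays, and low readings have no detection call.

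Probe sets were named through the platform annotation, with symbols updated to the RefSeq table of Release 6 plus ISO1 MT: 13646 carried 1 gene, 402 several and 4721 none, 183 were controls, and 13543 matched the table. Where a gene had several probe sets (1094 genes), the one with the highest mean over 12 arrays was kept. The test was limma 3.58.1 in R 4.3.3, a 2-group fit over the 6 arrays with eBayes and a variance trend, and Benjamini-Hochberg adjustment over 11982 genes. The wtsX1Lats against Canton S difference and the interaction came from a 4-group fit over 12 arrays. The fits were tested on simulated data with known changes. There the wtsX1Lats against Canton S fit made more false calls than its threshold allows, and the interaction missed most changes of the smallest size tried. All p-values in the text are from these limma fits.

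Named genes are Rbf and wts, the 14 largest called rises and falls with separated groups, the 3 largest CG-numbered ones each way, every Hippo target, up to 4 members with the smallest p from each of 33 lists, and 6 interaction genes each way. Further members were named after their values were seen: all called genes of the photoreceptor, Notch and brain lists and members that did not pass. The comparison and the lists were chosen with earlier results of these data known. Promoter and protein sequences were not used here, and no sequence is shown.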

Additional observations from a re-analysis of the deposited data

Results flagged for a closer look

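Of the 107 genes whose change in rbf120a discs and in Canton S discs differed by the interaction test of limma (adjusted p under 0.05), the 19 that are named are given here. Values are the change of rbf120a wtsX1Lats against rbf120a minus that of wtsX1Lats against Canton S.

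In 8 of them the change in rbf120a discs was itself called. The interactions were 2.65 for Hrb87F, 1.85 for whd, 2.15 for NijC, 1.43 for CG42565, -2.01 for blanks, -2.84 for Mal-A1, -2.19 for krimp and -1.67 for ry, the xanthine dehydrogenase gene. For ry the values were 8.20, 8.26 and 8.41 in rbf120a wtsX1Lats and 8.95, 8.86 and 8.87 in rbf120a, and 8.58, 8.08 and 8.63 in wtsX1Lats and 7.30, 7.73 and 7.06 in Canton S. In ry both rbf120a and wtsX1Lats discs thus lay above Canton S.

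In the other 11 genes adding wtsX1Lats to rbf120a gave no call and the Canton S mean stood apart from those of all 3 mutant genotypes. Higher in the mutants were CG8768 (-3.44), CG11594 (-2.71), the lamin B receptor gene LBR (-2.64), CG13920 (-2.51) and CG32055 (-2.39). Lower in the mutants were CG15772 (4.86), CG31522 (3.93), CG6912 (3.41), Mec2 (3.39), and the hemocyte genes Glt (3.15) and srp (2.88). CG15772 read 4.42, 4.42 and 4.53 in rbf120a wtsX1Lats and 4.41, 4.52 and 4.59 in rbf120a, and 4.47, 4.59 and 4.34 in wtsX1Lats and 9.56, 9.36 and 9.22 in Canton S. For srp, replicates 1 and 2 of rbf120a wtsX1Lats (6.81 and 5.66) lay above the other 7 mutant arrays (4.68 to 4.99), so it did not separate Canton S from every mutant array. The causes of these differences were not tested.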

How the results depend on the processing

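For rbf120a wtsX1Lats against rbf120a, 412 genes were called. The count was 81 in the 12-array fit, 67 when a change above 0.26 was required (treat), 115 to 327 with 1 array left out (115 without rbf120a wtsX1Lats replicate 3), and 248 without both arrays high in salivary gland genes, an alternative chosen after seeing the data. The count was 553 (353 higher, 200 lower) after median centring, 356 after quantile normalisation, 391 with the mean of a gene's probe sets, 392 without a variance trend, 375 among genes above the median level and 518 with robust variances, all within 1.5 times the main count. No named gene that was called reversed its sign in any of these fits. Changes near 0 that were not called did: CycE (-0.052 without both gland-high arrays), Ilp8 and CG15772 (0.026 and 0.063 after median centring), and with 1 array left out Rbf (-0.047 to 0.149), CycE (-0.049 to 0.136), Mer (-0.029 to 0.06) and Ilp8 (-0.259 to 0.153). Of 70 named called genes, 44 lost the call in the 12-array fit, 35 under treat, 20 without both gland-high arrays and 10 to 32 with 1 array left out. With the replicate number as a replicate block, 276 genes were called in the main comparison, 674 for wtsX1Lats against Canton S and 87 for the interaction. Deviations of same-numbered arrays correlated at -0.30, -0.30 and 0.31. Those of the 2 gland-high arrays, which differ in number, correlated at 0.46. Deviations from a mean of 3 arrays are not independent, so these values cannot decide whether the numbers pair the arrays. For wtsX1Lats against Canton S, leaving out 1 array gave 297 (without Canton S replicate 1) to 1596 (without wtsX1Lats replicate 3) beside 672, and array weights gave 911, within 1.5 times the main count. The 107 interaction calls became 248 with array weights, 55 among genes above the median level and 41 to 121 with 1 array left out (41 without Canton S replicate 1). Removing any 1 of the 6 rbf120a wtsX1Lats or rbf120a arrays took them to 43 to 60. The cause of these shifts was not tested beyond the fewer genes or arrays that some settings use.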

Other observations

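Tetraspanin genes of the Tsp42E cluster on arm 2R were looked at after several were seen among the falls. Tetraspanins are small membrane proteins that organise surface receptors. Of 16 measured members 5 fell and 1 rose, with a median change of -0.11, where 2.39% of all genes fell and 1.05% rose. Tsp42Ei read 7.95, 7.67 and 7.83 in rbf120a wtsX1Lats discs and 8.68, 8.94 and 8.92 in rbf120a discs (-1.03 ± 0.11 SE, limma adjusted p = 0.00479). Tsp42Eh read 8.97, 8.47 and 8.57 against 9.44, 9.47 and 9.53 (-0.81 ± 0.13, adjusted p = 0.0188). In both genes, as in every called gene, the groups did not overlap. Tsp42El (-0.69), Tsp42Eg (-0.80) and Tsp42Eo (-1.26) also fell, whereas Tsp42Ef rose (0.38 ± 0.07 SE, adjusted p = 0.029). Members were counted by name, so the tetraspanin gene lbm, also on 2R (-0.87), stands in the photoreceptor list and not among these 16. The family was singled out after its values were seen and was given no test of its own.

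Among 83 cytochrome P450 genes 1 rose and 3 fell, and of 34 glutathione S-transferase genes 2 fell, GstD3 and GstZ2. These shares (4.82% and 5.88%) are near the 3.44% called over all genes. All 13 Jonah protease genes, which digest protein in the gut, had a negative change (median -0.50, where 50.1% of all genes were negative) and none was called. Their mean level was 5.15, 5.15 and 5.24 in rbf120a wtsX1Lats and 5.15, 5.21 and 6.98 in rbf120a, so 1 array, rbf120a replicate 3, which was also highest in gut markers (5.87 against 5.23 and 5.32), set the difference.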
